A study of Homo sapiens with 28 samples.

Results

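Chromatin accessibility was compared between Kuramochi cells that had survived 9 days of olaparib at 320 uM (P320) and at 10 uM (P10). Kuramochi is an established epithelial line of high-grade serous ovarian cancer, and its genotype is given as BRCA2-mutant. Both groups were drug-naive before the exposure and are named persister cells in the labels, with 2 libraries each and no sort named for either. The 4 libraries were set against each other at all 105048 consensus peaks, so the question is what the higher dose of an acute exposure changes. The labels list 28 samples, of which 20 have a column in the table. C, also BRCA2-mutant Kuramochi, was untreated and sorted on CD24 and CD44, and T10 and T320 had adapted to 10 and 320 uM and were sorted for low CD24 and high CD44. Their values appear below as reference levels, except where the dose difference itself is compared with that of the adapted cells. All 20 libraries with a column were fitted together, so the other groups also shaped the spread behind the p-values. The 8 samples of T320 cells with or without drug, among them those after 120 drug-free days, were not analysed here. Each library came from about 50000 cells prepared with the Omni-ATAC protocol and sequenced in pairs. The labels do not say that replicates were separate cultures. The p-values therefore measure the spread between libraries within the 10 groups, which may be technical.

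Olaparib blocks PARP1 and PARP2 and traps them on DNA, and cells that lack BRCA2 cannot repair the resulting breaks by homologous recombination. Persister cells survive such an exposure without having acquired stable resistance. ATAC-seq cuts and tags open chromatin with a transposase, so a peak holds more reads where promoters or enhancers are accessible. NF-kB and AP-1, the latter a dimer of FOS and JUN proteins, are transcription factors that open enhancers of cytokine and stress genes, and interferon genes answer to STAT and IRF factors. Promoters rich in CpG pairs are commonly open in all cells, while promoters poor in CpG are commonly open in some cell types and states only.

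Lost and gained promoters are first shown by their sequence. A peak is called gained or lost when its adjusted p was under 0.05 and its log2 difference between P320 and P10 at least 1. The adjusted p comes from edgeR's quasi-likelihood test, by Benjamini-Hochberg over all peaks. A gene-start peak lies within 1 kb of an annotated start, or of either end of a gene whose strand is not given. Of 476 gene-start peaks whose promoter held the AP-1 motif TGACTCA, read on both strands, 22 were lost and 0 were gained. Of the 11366 gene-start peaks with a promoter sequence, from which these come, 0.950% were lost and 0.405% gained. Over all gene-start peaks, with or without a promoter sequence, 1.84% were lost, 0.61% gained and 2.44% either. The motif was thus in 22 of the 108 lost peaks with a promoter sequence (20.4%). It was in 4.19% of all 11366 gene-start peaks with a promoter sequence and in 4% of all 22175 promoters of the same length. Sequences are RefSeq's for GRCh38.p14, and the motif was searched over 250 bases before and 50 after each start. Printed below, 5′ to 3′ on the gene's strand and with the motif in capitals, are the 250 bases before the start for the 5 largest falls among the 22, chosen after their values were seen. They are SBSN, an epidermal secreted protein (chr19:35528312-35528561, minus strand), IL23A, a subunit of interleukin 23 (chr12:56338634-56338883, plus), ODAPH, a protein of enamel formation (chr4:75555816-75556065, plus), NXPE2 (chr11:114678277-114678526, plus) and CXCL8, the chemokine interleukin 8 (chr4:73740319-73740568, plus).
SBSN: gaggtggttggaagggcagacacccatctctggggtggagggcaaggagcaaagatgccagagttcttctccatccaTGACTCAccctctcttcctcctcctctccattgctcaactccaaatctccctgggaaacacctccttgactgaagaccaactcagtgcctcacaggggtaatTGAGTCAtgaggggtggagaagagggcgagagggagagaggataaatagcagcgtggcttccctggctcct
IL23A: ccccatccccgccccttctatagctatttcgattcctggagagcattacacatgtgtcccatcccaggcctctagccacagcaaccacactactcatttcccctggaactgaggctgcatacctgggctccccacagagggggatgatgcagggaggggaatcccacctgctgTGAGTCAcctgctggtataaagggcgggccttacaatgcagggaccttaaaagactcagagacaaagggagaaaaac
ODAPH: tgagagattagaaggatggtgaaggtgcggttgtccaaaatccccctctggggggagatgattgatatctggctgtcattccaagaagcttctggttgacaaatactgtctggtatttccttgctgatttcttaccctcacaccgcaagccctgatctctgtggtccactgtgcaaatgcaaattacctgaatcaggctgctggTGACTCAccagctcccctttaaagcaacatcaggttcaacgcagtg
NXPE2: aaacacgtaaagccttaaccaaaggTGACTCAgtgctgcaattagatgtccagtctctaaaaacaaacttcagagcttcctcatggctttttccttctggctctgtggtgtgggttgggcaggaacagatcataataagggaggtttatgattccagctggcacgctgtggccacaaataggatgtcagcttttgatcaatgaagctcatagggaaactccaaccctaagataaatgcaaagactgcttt
CXCL8: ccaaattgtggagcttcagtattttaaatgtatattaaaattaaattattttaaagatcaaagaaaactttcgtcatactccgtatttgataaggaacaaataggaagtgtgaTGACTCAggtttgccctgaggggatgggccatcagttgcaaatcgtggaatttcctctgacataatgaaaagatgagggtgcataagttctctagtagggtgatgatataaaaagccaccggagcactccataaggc

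Accessibility over SBSN was 6.53 and 6.84 CPM (counts scaled to the size of the library, as edgeR gives them) in P10 and 0.918 and 1.08 in P320, a log2 difference of -2.74 ± 0.64 (SE; adjusted p = 0.00629). IL23A went from 13.5 and 9.55 to 3.0002 and 3.23 CPM (-1.88 ± 0.50), ODAPH from 1.85 and 2.18 to 0.635 and 0.520 (-1.79 ± 0.45), and NXPE2 from 4.94 and 6.02 to 1.38 and 2.04 (-1.68 ± 0.43). Both P320 libraries lay below both P10 libraries at all 5 promoters, CXCL8 included, whose values are given with the cytokines. The 5 were picked as large called falls, and at 77.5% of all peaks the P10 and P320 libraries did not overlap. The motif starts at base 114 of the CXCL8 stretch and at base 26 of the NXPE2 stretch, and SBSN holds 2 copies, starting at bases 78 and 180. A match is a description of the letters and does not show that a factor binds there.

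Calls were more frequent at promoters poor in CpG. Of 828 gene-start peaks whose promoter had an observed over expected CpG ratio under 0.3, 2.78% were gained and 8.82% lost, and the median log2 difference was 0.01. Of the 4371 with a ratio of 0.9 or more, 2 were gained and 0 lost, with a median of 0.40. Between these lay 1081 peaks at ratios from 0.3 to 0.6, with 10 gained and 26 lost, and 5086 at 0.6 to 0.9, with 11 and 9. The GC box GGGCGG was in the promoters of 21.3% of lost and 28.3% of gained peaks against 74.3% of all gene-start peaks with a promoter sequence and 56.3% of all promoters. The TATA box TATAAA was in 14.8% and 17.4% against 6.49% and 9.47%, the RUNX motif TGTGGT in 29.6% and 21.7% against 10.9% and 11.3%, and the ETS motif CCGGAAG in 1.85% and 4.35% against 18.7% and 12.8%. The NF-kB motif GGGACTTTC was in 2 of the 108 lost promoters (1.85%) and in 0 of the 46 gained ones, against 0.440% and 0.397%. These shares rest on 108 lost and 46 gained promoters and were not tested. Of the 108 lost, 73 had a CpG ratio under 0.3. Motif shares, that of AP-1 included, were not compared within promoters of like CpG ratio. The next 3 promoters, again the 250 bases before the start with every CpG in capitals, show the range: FLACC1, a gained promoter (chr2:201357346-201357595, minus strand), IL1B, a lost one (chr2:112836780-112837029, minus), and PARP1, the drug's target, which was neither (chr1:226408094-226408343, minus).
FLACC1: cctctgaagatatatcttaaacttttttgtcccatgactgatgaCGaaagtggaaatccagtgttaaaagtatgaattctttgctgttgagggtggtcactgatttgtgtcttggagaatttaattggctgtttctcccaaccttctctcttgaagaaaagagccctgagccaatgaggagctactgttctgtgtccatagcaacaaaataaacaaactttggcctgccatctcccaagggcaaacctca
IL1B: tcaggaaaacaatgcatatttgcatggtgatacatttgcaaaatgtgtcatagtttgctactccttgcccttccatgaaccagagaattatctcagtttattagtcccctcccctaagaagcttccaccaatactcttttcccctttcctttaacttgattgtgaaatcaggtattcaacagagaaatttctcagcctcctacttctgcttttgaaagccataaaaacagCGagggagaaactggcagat
PARP1: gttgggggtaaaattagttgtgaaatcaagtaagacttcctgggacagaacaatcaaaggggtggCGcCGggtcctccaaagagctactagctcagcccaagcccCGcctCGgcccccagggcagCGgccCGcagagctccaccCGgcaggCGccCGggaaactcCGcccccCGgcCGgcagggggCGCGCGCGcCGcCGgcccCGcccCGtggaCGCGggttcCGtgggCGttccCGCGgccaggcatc

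Over the 300 bases searched, the ratio was 0.07 at FLACC1, 0.155 at IL1B and 0.899 at PARP1, and the printed stretches hold 1, 1 and 26 CpG pairs. IL1B encodes the cytokine interleukin 1 beta. The values of all 3 follow with their genes.

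The 4 libraries were deep and alike within each group. Total counts were 22184883 and 22437074 in P10 and 29699950 and 27936456 in P320, against 9627970 to 29699950 over all 20 libraries. The median absolute log2 difference between replicates was 0.165 in P10 and 0.155 in P320, beside 0.256 to 0.420 in the other groups. Gene-start peaks held 33.8% and 33.6% of the counts in P10, 39.9% and 39.1% in P320 and 28.5% to 36.9% in the other libraries, so P320 stood above all others in this share. Of 29 epithelial genes 24 had a gene-start peak, among them EPCAM, KRT8 and CDH1, and of 21 genes that mark the Mullerian or serous lineage 18 had one, with PAX8 at 28.3 and 25.6 CPM in P10 and 44.4 and 43.0 CPM in P320. Because cells were measured in bulk, fewer cells with an open site and less opening per cell cannot be told apart.

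More sites closed than opened at the higher dose. Of the 105048 peaks 4303 (4.1%) were gained and 10168 (9.68%) lost in P320, and 13.8% were called in either direction. Calls were more frequent away from gene starts, where peaks were also lower (median 4.29 CPM at distal and 19.2 CPM at gene-start peaks). Among 80324 distal peaks, with no annotated gene end within 1 kb, 3869 (4.82%) were gained and 8996 (11.2%) lost, while among 15421 gene-start peaks 94 (0.61%) were gained and 283 (1.84%) lost. Of the 15421, 2928 lay only at an end of a gene whose strand is not given, with 25 gained (0.854%) and 104 lost (3.55%). The 12493 at starts of known strand had 69 gained (0.552%) and 179 lost (1.43%). No library of one group overlapped the other at 77.5% of all peaks, and single peaks are to be read against that share. Scaled on gene-start peaks alone, 1840 peaks were gained and 13301 lost, so that gained peaks were 12.2% of the calls instead of 29.7%.

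Most gene-start peaks sat slightly higher in P320 without being called. Their median log2 difference was 0.34, against 0.08 over all peaks and -0.00 over distal ones, and it moved to 0.07 when the libraries were scaled on gene-start peaks. Differences at gene starts are therefore given below beside that median. On adjusted p alone, 7.88% of all peaks were higher in P320 and 12.2% lower, and 1549 gene-start peaks (10%) were higher and 454 (2.94%) lower. The share gained grew with the distance to the nearest gene start, from 0.61% within 1 kb to 3.27% at 1 to 10 kb, 5.05% at 50 to 200 kb and 7.94% beyond 200 kb, whereas the share lost was 10.7%, 11.3%, 11.2% and 10.4% in the 4 bins beyond 1 kb. Over the same distance bins the median CPM fell from 19.2 to 3.32. Of the 10049 gene-start peaks in the highest of 5 equal classes of mean CPM, 13 were gained and 40 lost. Of the 8930 distal peaks in that class 239 were gained and 465 lost. In the lowest class 5.75% of 365 gene-start peaks were gained and 9.86% lost, beside 6.20% and 11.6% of 19270 distal ones. The part of signal level in these shares was not tested.

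**Figure D1:**
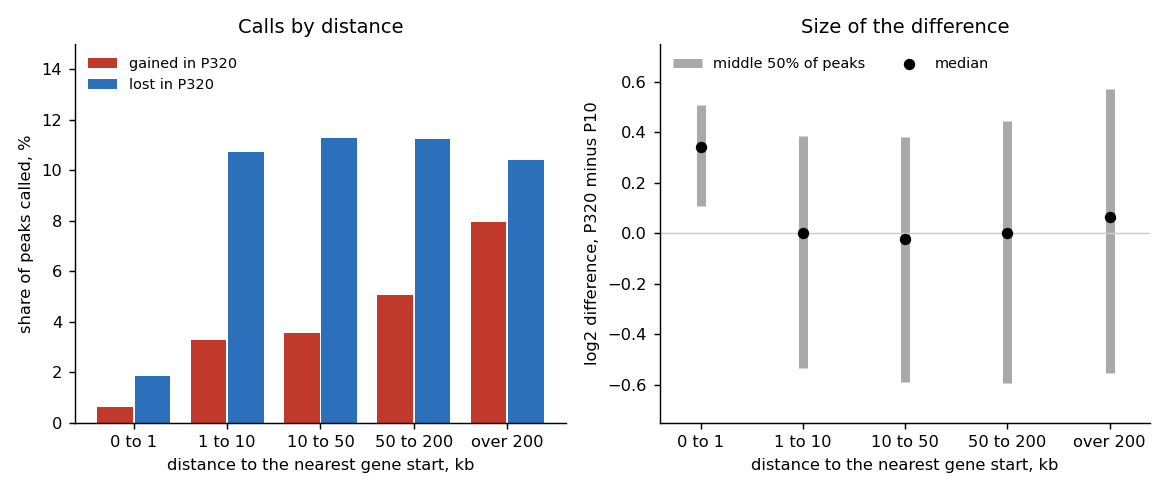
Left, share of peaks called gained or lost in P320 (%) by distance to the nearest gene start (kb). Right, median log2 difference (points) and middle 50% of peaks (bars) in the same bins. Gained peaks rise from 0.61% within 1 kb to 7.94% beyond 200 kb, lost peaks stay between 10.4% and 11.3% beyond 1 kb, and the median is 0.34 at gene starts and near 0 elsewhere.

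Gained and lost sites stood differently to untreated cells. The median gained peak had 1.91 CPM in P10, 5.26 CPM in P320 and 5.27 CPM in C, and the median lost peak 5.96 CPM in P10, 1.83 CPM in P320 and 2.74 CPM in C. In log2 terms the medians were -1.45 for P10 against C and 0.01 for P320 against C at gained peaks, and 1.16 and -0.57 at lost peaks. The comparisons share the P10, P320 and C libraries, so these medians are a description. C was sorted, and the labels name no sort for either persister group, so exposure and sort cannot be told apart where C enters.

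Among the 8 largest rises at gene starts were TOGARAM2, LOC124903164, FLACC1 and DNAJA4. TOGARAM2, which encodes a protein with microtubule-binding TOG domains (chr2:28981069-28982831), had 4.50 and 2.92 CPM in P10 and 22.0 and 19.5 CPM in P320, a log2 difference of 2.48 ± 0.32 (SE; edgeR, adjusted p = 9.52e-05). C had 4.60 and 3.16 CPM, so both P320 libraries stood above P10 and C alike. The uncharacterised LOC124903164 (chr13:42747073-42748197) had 4.81 and 5.14 CPM in P10, 24.7 and 25.2 CPM in P320 and 4.68 and 4.48 CPM in C, and rose by 2.32 ± 0.28 on the log2 scale. FLACC1, a coiled-coil protein of the flagellum (chr2:201356984-201358368), went from 2.03 and 2.14 to 9.21 and 9.07 CPM, with 5.25 and 4.86 CPM in C (2.13 ± 0.24). This is the CpG-poor promoter printed above, and C lay between the doses.

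DNAJA4, a co-chaperone of heat shock protein 70 (chr15:78265945-78267882), went from 3.75 and 2.27 to 12.4 and 11.7 CPM (2.00 ± 0.37). TMEM212 had 2.12 and 1.83 CPM in P10 and 7.38 and 6.43 CPM in P320 (1.80 ± 0.29). These 5 rises rest on inner or outer starts whose strand is given. PLEKHS1 (2.40 ± 0.53) and ZNF492, a zinc-finger gene (1.95 ± 0.50), were at or under 1.15 CPM in both P10 libraries. ZNF492 was no longer called without P10 replicate 2 or P320 replicate 1, when scaled on gene-start peaks or with window medians removed, and PLEKHS1 not without P10 replicate 2.

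Among the 8 largest falls were C3, SAA2 and TNIP3, genes of complement, the acute phase and the control of NF-kB. C3, the central complement protein (chr19:6720580-6721119), went from 6.44 and 7.28 CPM in P10 to 0.671 and 0.409 CPM in P320, a log2 difference of -3.65 ± 0.68 (adjusted p = 0.00135), with 1.64 and 0.566 CPM in C. SAA2, an acute-phase serum amyloid whose peak is shared with the read-through SAA2-SAA4 (chr11:18248495-18249167), had 4.67 and 4.66 CPM against 0.318 and 0.706 CPM (-3.18 ± 0.66). TNIP3, a partner of the NF-kB inhibitor TNFAIP3 (chr4:121164066-121164539), had 2.65 and 2.01 CPM against 0.212 and 0.0743 CPM (-3.95 ± 0.89). In these 3 genes P10 was the high group, and C lay near P320 or between. SAA2 was not called without P320 replicate 1, nor TNIP3 without P320 replicate 2.

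The other 5 falls were at LIPA, PRDM11, SHLD1, SLC13A3 and IFIT2. LIPA, the lysosomal acid lipase, fell at an inner start (chr10:89342522-89343112), from 5.12 and 4.45 to 0.494 and 0.743 CPM (-2.94 ± 0.42), and PRDM11 (chr11:45093061-45093528) from 7.01 and 7.02 to 0.706 and 0.780 CPM (-3.23 ± 0.38). At SHLD1, a subunit of the shieldin complex that limits resection of broken DNA ends, the lost peak (chr20:5863096-5863884) went from 6.09 and 5.14 to 0.0706 and 0.223 CPM (-5.21 ± 0.70, adjusted p = 0.000114). It lies at the higher end of a gene whose strand is not given. The peak at the lower end (chr20:5749993-5751444) had 7.14 and 8.98 CPM in P10 and 11.5 and 10.6 CPM in P320 (0.46 ± 0.28, adjusted p = 0.255). SLC13A3, a dicarboxylate transporter, fell at its lower end (-3.31 ± 0.36) and not at the other (0.12, adjusted p = 0.686). IFIT2, an interferon-induced inhibitor of translation, fell at its higher end (chr10:89309143-89310718), from 9.97 and 12.4 to 1.41 and 0.929 CPM (-3.25 ± 0.55), and not at the other (0.48, adjusted p = 0.226). A peak named after one of these 3 genes may therefore not be its promoter. For C3, SAA2, OAS2, ITGB2 and FAP the strand is not given either, and the other end has no peak in the table.

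**Figure D2:**
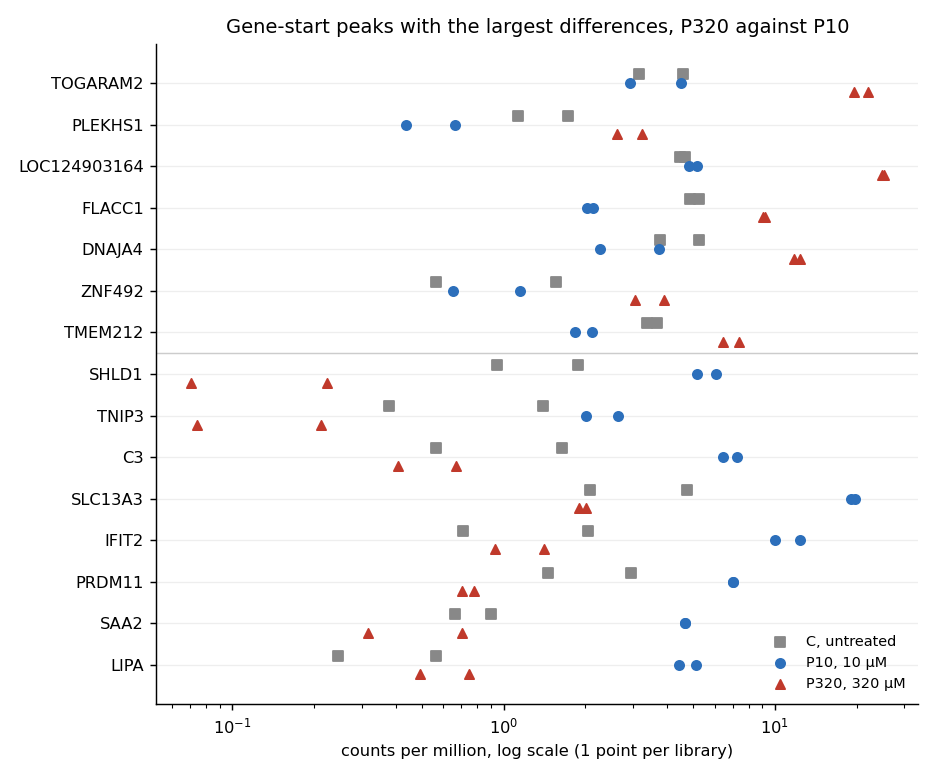
CPM (log axis, 1 point per library) of 7 of the 8 gene-start peaks with the largest rises (upper) and the 8 with the largest falls (lower), in C, P10 and P320. Peaks were chosen as called and without overlap between P10 and P320, so the separation of these groups follows from the choice. P320 lies to the right of P10 in the upper 7 and to the left in the lower 8. SHLD1 falls to 0.0706 and 0.223 CPM in P320.

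Genes of NF-kB signalling and its cytokines lost accessibility at a minority of starts and at many sites around them. Of 17 genes of the list with a gene-start peak 0 were gained and 3 lost, IL1B, CXCL8 and BIRC3. Of all gene-start peaks 0.61% were gained and 1.84% lost. The list's median was -0.08 against 0.34 over all gene-start peaks. IL1B (chr2:112836577-112837375) went from 5.25 and 4.97 CPM in P10 to 0.988 and 1.00 CPM in P320 (-2.35 ± 0.39, adjusted p = 0.000521). CXCL8, a chemokine that attracts neutrophils (chr4:73740068-73741301), went from 4.98 and 5.97 to 1.69 and 1.75 CPM (-1.67 ± 0.38, adjusted p = 0.00525). BIRC3, an inhibitor of apoptosis that acts in NF-kB signalling, went from 13.1 and 15.7 to 7.66 and 6.69 CPM (-1.004 ± 0.23). CXCL8 lost the call without either P320 replicate (adjusted p = 0.062 and 0.0506), and BIRC3 without P10 replicate 2 or P320 replicate 2 and, at -0.98, with window medians removed, with or without a replicate block. ICAM1, an adhesion receptor, had -0.94 ± 0.19 and CXCL1, another neutrophil chemokine, -0.82 ± 0.20, both past the adjusted p but under the fold minimum. The subunits themselves were not called, with NFKB1 at -0.09, NFKB2 at 0.07, REL at 0.31 and RELB at 0.41.

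Counting every peak whose nearest gene start, within 50 kb, belongs to the list, 43 of 105 peaks around 20 NF-kB and cytokine genes were lost (41%) and 4 gained (3.81%). Over all 62338 peaks within 50 kb of a start, 8.82% were lost and 2.76% gained. This count was added after the data were seen, and nearness does not show that a peak regulates the gene. The number lost was between 23 and 50 over the alternatives tried, and was 23 without P320 replicate 1 and without P320 replicate 2. LIF, a cytokine of the interleukin 6 family, had 8 of its 12 peaks lost, and their sum over the 12 was 176 and 182 CPM in P10, 92.2 and 90.2 CPM in P320 and 111 and 106 CPM in C. NFKBIA, the inhibitor that holds NF-kB in the cytoplasm, had 6 lost and 1 gained of 14.

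Several single peaks near secreted factors are given in full. One 20450 bp from the start of CSF2, the cytokine GM-CSF (chr5:132094239-132095904), went from 34.6 and 38.1 CPM in P10 to 3.0002 and 3.23 CPM in P320 (-3.54 ± 0.32, adjusted p = 7.88e-06), with 4.60 and 2.31 CPM in C. Both P10 libraries stood apart from the other 4. One 2366 bp from CXCL2 (chr4:74096237-74096829) went from 7.23 and 8.24 to 0.282 and 0.409 CPM (-4.46 ± 0.56) and one 2530 bp from CXCL1 (chr4:73871923-73873187) from 13.3 and 15.4 to 0.918 and 1.15 CPM (-3.79 ± 0.35). CXCL2 attracts neutrophils like CXCL1. A peak near CCL2, a monocyte chemokine (chr17:34234706-34236351), had 12.5 and 11.2 CPM in P10 and 1.48 and 1.11 CPM in P320 (-3.18 ± 0.37), and one 4150 bp from NFKBIA (chr14:35398911-35400599) 61.3 and 56.7 against 14.3 and 14.1 CPM (-2.06 ± 0.34). The gained ones were 2 peaks near NFKB1, 1 near CXCL1 and 1 near NFKBIA.

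Interferon genes moved in both directions at their starts. Taking for each gene the gene-start peak with the most counts, of 25 measured 1 was gained and 2 were lost, with a median of 0.01. Of all gene-start peaks 0.61% were gained and 1.84% lost, with a median of 0.34. IFIT2 is counted by its uncalled end (0.48), not by the lost peak described above. OAS2, a sensor of double-stranded RNA (chr12:112977772-112979307), went from 22.0 and 19.0 CPM in P10 to 4.24 and 4.20 CPM in P320 (-2.28 ± 0.28, adjusted p = 6.89e-05), and its neighbour OAS1 from 5.65 and 6.36 to 2.22 and 3.60 CPM (-1.04 ± 0.30). OAS1 lost the call without P10 replicate 1, P10 replicate 2 or P320 replicate 1 and with window medians removed. IFI27, an interferon-induced mitochondrial protein (chr14:94110599-94111693), went the other way at an inner start, from 5.998 and 5.84 to 13.3 and 13.9 CPM (1.20 ± 0.22, adjusted p = 0.00105), and had 0.93, not called, when scaled on gene-start peaks. C had 10.2 and 11.2 CPM there, closer to P320. IFIT1, a binder of foreign RNA, had 0.94 and was past the adjusted p alone (0.0178), not called.

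Around the same genes 29 of 90 peaks were lost (32.2%) and 4 gained (4.44%), beside 8.82% and 2.76% of all peaks within 50 kb. The numbers lost here and around the other lists also moved with the alternatives tried. IFI6, an interferon-induced inhibitor of apoptosis, had its gene-start peak at 0.28 and a peak 6281 bp away (chr1:27662899-27665911) that went from 97.2 and 95.7 CPM in P10 to 24.0 and 21.5 CPM in P320 (-2.09 ± 0.18, adjusted p = 7.88e-06), with 30.7 and 27.3 CPM in C. IRF1, a factor induced by interferon gamma, had 4 of 11 peaks lost, among them one 30312 bp away (chr5:132458424-132460461), with 32.8 and 31.2 against 7.38 and 7.77 CPM (-2.08 ± 0.27). Gained peaks lay, among others, near IFI44 (chr1:78694304-78695126, from 0.529 and 0.567 to 2.86 and 2.68 CPM, 2.32 ± 0.37), IFIH1 and IFI27.

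Antigen presentation had 0 gained and 0 lost of 15 gene-start peaks, where 2.44% of all gene-start peaks were called. Nearby, 12 of 54 peaks were lost (22.2%) and 0 gained, beside 8.82% and 2.76% of all peaks within 50 kb. A peak 3599 bp from HLA-B, a class I molecule that presents peptides (chr6:31350633-31353580), went from 27.9 and 27.0 CPM to 4.62 and 4.31 CPM (-2.62 ± 0.44), and one near HLA-E (chr6:30496063-30497091) from 15.04 and 14.7 to 2.22 and 2.68 CPM (-2.60 ± 0.41). Their gene-start peaks had 0.26 and 0.45. HLA class I genes are related in sequence, so some reads may have been split among them, which was not tested. B2M, the light chain of class I molecules, had 0.85 at its start (adjusted p = 0.0114, under the fold minimum) and a lost peak 7859 bp away (-1.97 ± 0.29).

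**Figure D3:**
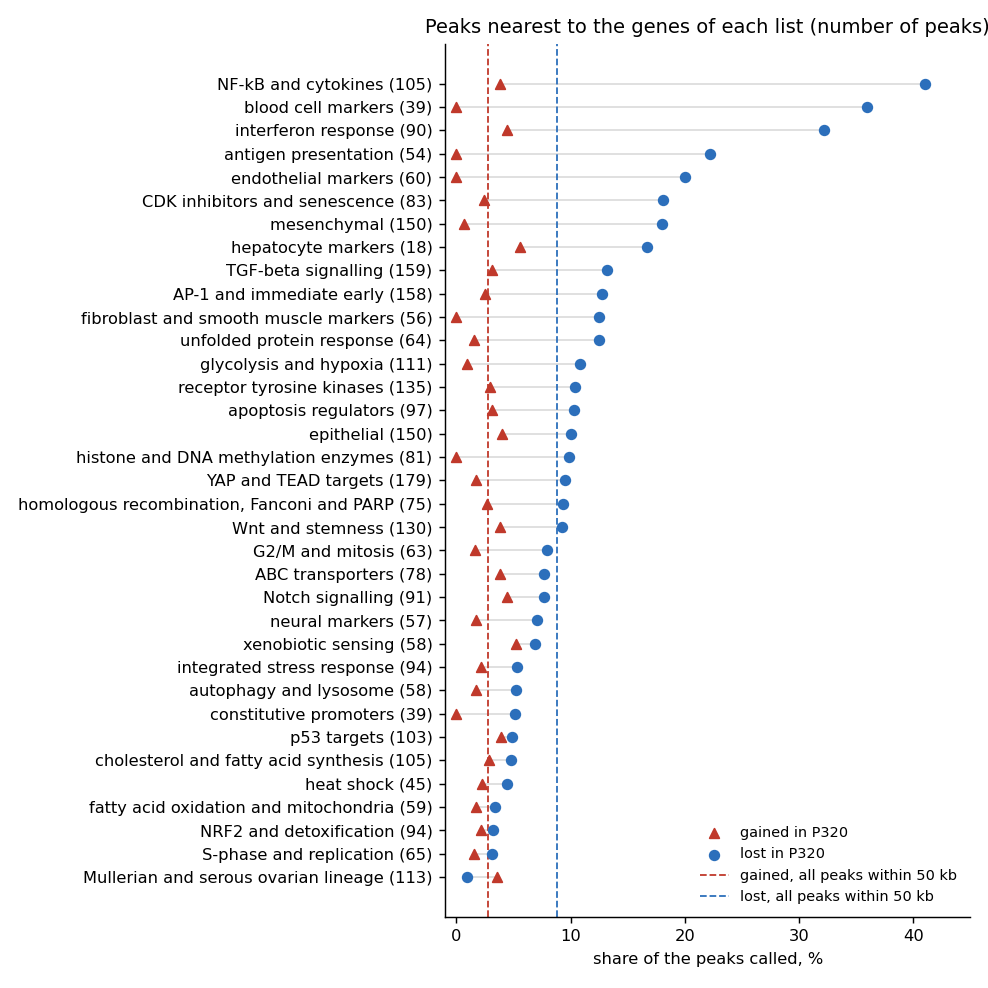
Share of the peaks within 50 kb of each list's genes that were gained or lost in P320 (%), with the number of peaks in brackets; dashed lines give the shares over all peaks within 50 kb, 2.76% gained and 8.82% lost. NF-kB and cytokine genes have the highest share lost (41%) and the ovarian lineage the lowest (0.885%).

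**Figure D4:**
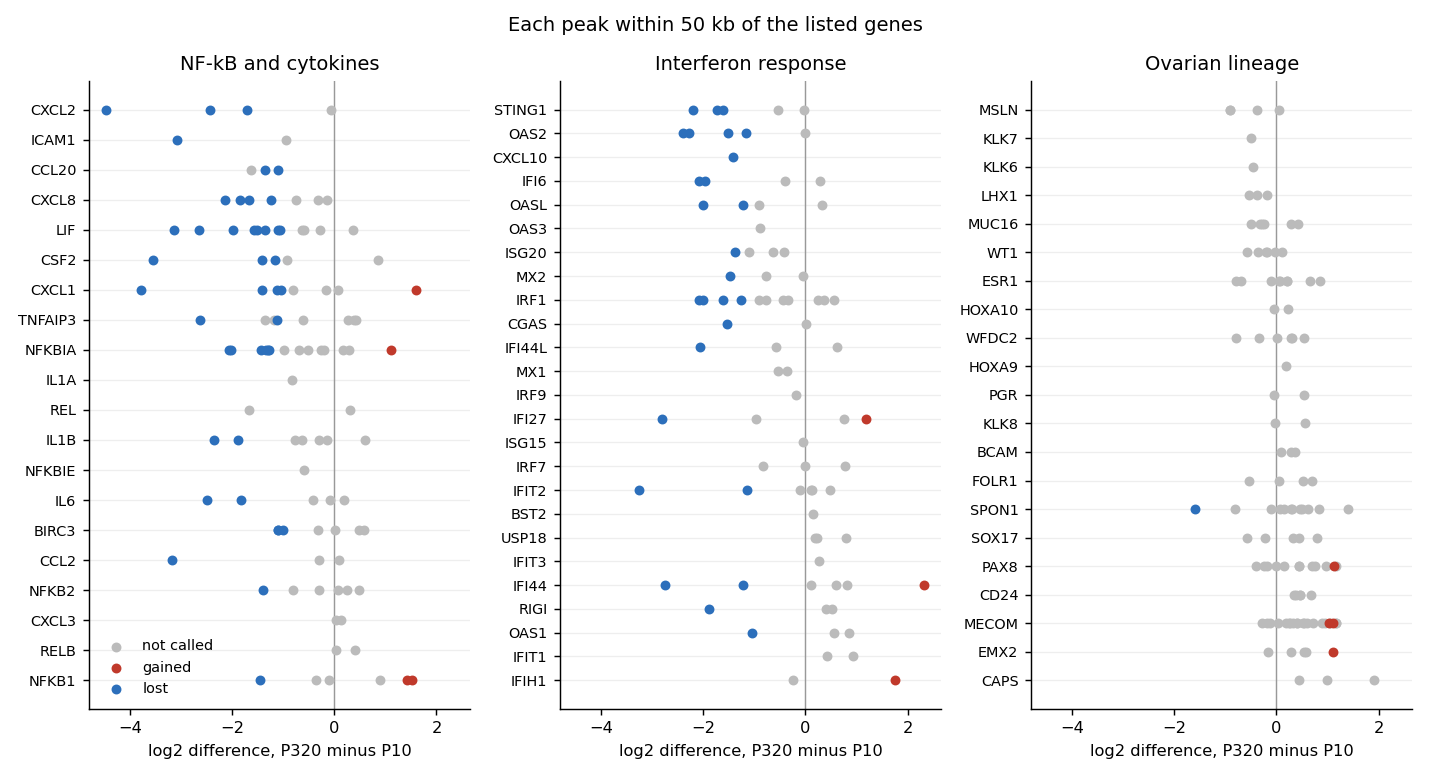
Log2 difference between P320 and P10 of the peaks within 50 kb of the genes of 3 lists, 1 interferon gene left out, 1 point per peak and 1 line per gene, colored by call. Lost peaks lie around most cytokine genes and many interferon genes, while the lineage genes have 1 lost peak, near SPON1.

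Around lineage genes few peaks were lost. At their starts 0 of 18 were gained or lost, where 2.44% of all gene-start peaks were called. The list's median was 0.05, against 0.34 over all gene-start peaks. Of 113 peaks around 21 genes 1 was lost (0.885%) and 4 gained (3.54%), beside 8.82% and 2.76% of all peaks within 50 kb. WT1, a factor of the serous lineage, had 60.9 and 63.8 CPM in P10 and 60.6 and 62.4 CPM in P320 (-0.02 ± 0.19), and its sign turned under other settings. MECOM, another lineage factor, had 0.25 ± 0.17, also with a sign that turned under other settings. PAX8, the Mullerian transcription factor, had 0.70 ± 0.20 at its start (adjusted p = 0.0226, under the fold minimum), and a peak 5222 bp away (chr2:113271985-113273699) was gained, from 10.8 and 11.2 to 23.6 and 24.7 CPM (1.13 ± 0.21). EMX2, a homeobox factor of the reproductive tract, had a gained peak too (chr10:117551556-117554541, 25.3 and 22.1 against 50.3 and 52.1 CPM, 1.11 ± 0.22). The other 2 gained peaks lay near MECOM, and the lost one near SPON1 (-1.60 ± 0.27).

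Epithelial starts gave 0 calls in 24 genes, with a median of 0.31, and mesenchymal starts 0 in 22, with 0.08. Of all gene-start peaks 2.44% were called, and their median was 0.34. ELF3, an epithelial factor, had the lowest value of the first list, 62.5 and 64.8 CPM in P10 against 32.4 and 31.5 CPM in P320 (-0.99 ± 0.18, adjusted p = 0.000924), just under the fold minimum. Around mesenchymal genes 27 of 150 peaks were lost (18%) and 1 gained. TGFBI, a matrix protein induced by TGF-beta, had 6 of 13 lost, and FN1, which encodes fibronectin, 3 of 5, one of them (chr2:215462018-215462860) going from 9.97 and 10.6 to 1.34 and 1.23 CPM (-2.99 ± 0.40). Around epithelial genes 15 of 150 were lost (10%) and 6 gained (4%). Both lists stand beside 8.82% lost and 2.76% gained over all peaks within 50 kb of a start.

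Genes of homologous recombination, Fanconi repair and PARP had no call at a start, where 2.44% of all gene-start peaks were called. The 38 had a median of 0.45 against 0.34 over all gene-start peaks, and 6 were past the adjusted p alone, all higher. On adjusted p alone 10% of all gene-start peaks were higher and 2.94% lower. The list of constitutive promoters had a median of 0.56, with 5 of 16 higher on adjusted p alone and 0 lower. PARP1 (chr1:226406567-226408730) had 31.7 and 37.4 CPM in P10 and 50.8 and 44.1 CPM in P320 (0.46 ± 0.21, adjusted p = 0.128), and BRCA2 (1 peak covers its start and that of ZAR1L) 25.01 and 26.7 against 36.6 and 35.5 CPM (0.48 ± 0.22, adjusted p = 0.123). ATM, the kinase that signals double-strand breaks, had 0.68, its target CHEK2 0.73 and RAD50, of the break-sensing MRN complex, 0.72. SLFN11, which blocks stressed replication forks, had -0.55 ± 0.38. None of these was called. The middle 50% of all gene-start peaks ran from 0.11 to 0.51, so PARP1 and BRCA2 lay inside it, ATM, CHEK2 and RAD50 above it and SLFN11 below it. Around the repair and PARP genes 7 of 75 peaks were lost (9.33%) and 2 gained, close to the 8.82% and 2.76% over all peaks within 50 kb.

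The sort markers CD24 and CD44 and the arrest genes CDKN1A and CDKN2A were not called either. CD24 had 19.1 and 17.9 CPM in P10 and 25.2 and 25.5 CPM in P320 (0.45 ± 0.20), and CD44, a hyaluronan receptor, 20.1 and 19.1 against 32.2 and 31.9 CPM (0.71 ± 0.22, adjusted p = 0.0302). The drug exporter ABCB1 had -0.06 ± 0.23, with a sign that turned without P10 replicate 1 (0.01) or P320 replicate 2 (0.07). CDKN1A, the p53-induced inhibitor of cyclin-dependent kinases, had -0.15 ± 0.21 and CDKN2A 0.36 ± 0.34. The list of CDK inhibitors and senescence genes had 2 of 17 measured starts lost, IL1B and CXCL8, and 0 gained. Around its genes 15 of 83 peaks were lost (18.1%) and 2 gained (2.41%), beside 8.82% and 2.76% of all peaks within 50 kb. Among 21 measured p53 targets 0 were called, with a median of 0.38, and 5 of 103 nearby peaks were lost (4.85%). Of all gene-start peaks 2.44% were called, with a median of 0.34, and 8.82% of all peaks within 50 kb were lost. Of all 664 genes in 35 lists 598 had a gene-start peak, of which 1 was gained (0.167%) and 9 lost (1.51%), beside 0.61% and 1.84% of all gene-start peaks. Besides those named, the 9 held CYP3A5, a drug-metabolising cytochrome, from 8.64 and 7.45 to 2.40 and 3.12 CPM (-1.54 ± 0.36), a call lost without P10 replicate 1 or P320 replicate 1.

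Among markers of other cell types ITGB2, CSF1R and FAP were lost at their starts. ITGB2, an integrin subunit of leukocytes, went from 28.5 and 24.3 CPM in P10 to 7.06 and 8.10 CPM in P320 (-1.80 ± 0.22, adjusted p = 5.52e-05), and CSF1R, a macrophage receptor, from 7.32 and 7.41 to 2.96 and 4.05 CPM (-1.07 ± 0.36), a call that ended when any 1 of the 4 libraries was left out. Over the blood list 6 of 16 markers had a gene-start peak, with 2 lost, and their sum was 141 and 137 CPM in P10 and 98.8 and 104 CPM in P320. Of all gene-start peaks 1.84% were lost and 2.44% called in either direction. The defining markers CD3E, MS4A1, PTPRC, LYZ and ITGAM had no gene-start peak in the table. Around the blood genes 14 of 39 peaks were lost (35.9%) and 0 gained, beside 8.82% and 2.76% of all peaks within 50 kb. One of the lost peaks lay near ITGAM (15.6 and 16.6 against 3.95 and 4.61 CPM). FAP, a fibroblast protease, fell by 1.72 ± 0.33 on the log2 scale, the 1 call among 8 of 14 fibroblast and smooth muscle markers measured. Endothelial (8 of 11 measured), hepatocyte (4 of 10) and neural (11 of 12) markers had 0 calls at starts, with sums of 81.3 and 82.1, 24.7 and 26.2, and 171 and 167 CPM in P10 and of 81.8 and 84.2, 25.8 and 25.9, and 193 and 190 CPM in P320. Around endothelial genes 12 of 60 peaks were lost (20%) and 0 gained, and around fibroblast and smooth muscle genes 7 of 56 (12.5%) and 0. Around hepatocyte genes 3 of 18 were lost (16.7%) and 1 gained, and around neural genes 4 of 57 (7.02%) and 1. These 4 lists too stand beside the 8.82% lost and 2.76% gained over all peaks within 50 kb. The part of other cells in the losses was not tested.

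Far from starts, the changes with the smallest p were large. A peak with no gene start within 50 kb (chr1:221230198-221231069) went from 0.309 and 0.436 CPM in P10 to 7.48 and 6.54 CPM in P320 (4.21 ± 0.39, adjusted p = 8.95e-06), with 2.38 and 2.31 CPM in C. Another without a near gene (chr8:122489070-122490530) went from 25.3 and 25.7 to 85.3 and 87.1 CPM (1.76 ± 0.17). One 31963 bp from IVNS1ABP (chr1:185349206-185350481) had 2.12 and 1.79 CPM against 16.1 and 14.5 CPM (2.97 ± 0.28), and one inside DENND2B (chr11:8777879-8779433) 3.57 and 3.97 against 20.9 and 20.7 CPM (2.46 ± 0.24). C lay between the doses at 3 of these 4 gained peaks and reached the P320 range near IVNS1ABP.

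Lost distal peaks with the smallest p lay near TNIP1, ETV4, MAP7 and LOC124901803. TNIP1, like TNIP3 a partner of TNFAIP3, had a peak 5194 bp away (chr5:151092879-151095830) with 57.7 and 59.4 CPM in P10, 12.7 and 10.4 CPM in P320 and 15.02 and 10.3 CPM in C (-2.34 ± 0.20, adjusted p = 7.88e-06). The peak 31871 bp from ETV4, an ETS transcription factor (chr17:43578211-43579913), went from 50.1 and 48.1 to 13.2 and 13.5 CPM (-1.88 ± 0.16). That near MAP7, inside the stress kinase gene MAP3K5 (chr6:136593259-136594748), went from 16.8 and 20.0 to 1.94 and 2.08 CPM (-3.19 ± 0.28), and that near LOC124901803 (chr7:157309195-157310788) from 17.2 and 17.9 to 2.51 and 2.42 CPM (-2.83 ± 0.24). At all 4 the P10 libraries stood above P320 and C.

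The genes with the most called peaks around them are named next, a choice that favours genes with many peaks. Of 16938 genes with a peak within 50 kb, 1439 had a gained peak, 3939 a lost one and 390 both. LIF led the losses with 8 of 12, followed by NAV2 with 7 of 28, PHLDB2 with 7 of 19, PRKAG2, a subunit of the energy sensor AMPK, with 7 of 34, and RIPOR2 with 7 of 29. The gene-start peak with the most counts had -0.27, 0.30, 0.42, 0.07 and 0.06 at these genes, none of them called. At RIPOR2, 2 further gene-start peaks (chr6:24936716-24937172 and chr6:25040960-25042259) were among the 7 lost, with -2.63 and -1.31. WLS, which carries Wnt proteins to the cell surface, had 5 of 10 peaks gained and 0 lost, NCALD, a neuronal calcium sensor, 5 of 16, LAPTM4B 5 of 13 with 1 lost, CNST 4 of 6, and ESRRG, an orphan nuclear receptor, 4 of 16 with 1 lost. Over all peaks within 50 kb 2.76% were gained and 8.82% lost. The strongest near WLS by p (chr1:68216727-68218032) went from 13.5 and 12.2 to 34.6 and 30.4 CPM (1.34 ± 0.21), and one in CNST (chr1:246597151-246597956) from 1.63 and 2.88 to 16.3 and 13.9 CPM (2.74 ± 0.47). Their gene-start peaks with the most counts had 0.70 at WLS, 0.59 at NCALD, 0.21 at LAPTM4B, 0.68 at CNST and 0.72 at ESRRG, where another gene-start peak was gained (1.07).

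Over 573 windows of 5 Mb the median difference ran from -0.31 to 0.67, around a median of 0.10. The lowest windows were on chromosome 8 from 130 to 135 Mb (-0.31, 57 of 340 peaks lost), chromosome 21 from 20 to 25 Mb (-0.27) and chromosome 2 from 105 to 110 Mb (-0.24). The highest were on chromosome 4 from 130 to 135 Mb (0.67, 10 of 51 peaks gained), chromosome X from 75 to 80 Mb (0.57) and chromosome 19 from 20 to 25 Mb (0.55), which holds ZNF492. With the median of each window removed, 4144 peaks were gained and 10633 lost, and 90.4% of the calls were kept in their direction.

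The same pair of doses gave other differences in adapted cells. Between T320 and T10, 7162 peaks were gained (6.82%) and 6116 lost (5.82%). The dose difference in persisters exceeded that in adapted cells at 10500 peaks (10%) and fell below it at 14264 (13.6%), by the interaction term of the same edgeR fit (adjusted p under 0.05 and a log2 value of at least 1 in size). Peaks named here were picked by their difference between P320 and P10. That difference is part of the interaction, so the choice favours large interactions. TOGARAM2 had 2.48 in persisters and -1.38 in adapted cells, an interaction of 3.87 ± 0.48 (adjusted p = 3.26e-05). At C3 the 2 differences were -3.65 and 0.96 (-4.61 ± 0.97, adjusted p = 0.00203), and at LIPA -2.94 and 1.29 (-4.24 ± 0.55). The adapted difference alone had an adjusted p, by the same edgeR test, of 0.375 at C3, 0.0182 at LIPA and 0.0105 at TOGARAM2. The CSF2 peak named above had -3.54 and 1.30, and a LIF peak (chr22:30205446-30206206) -3.15 and 2.90, the interaction being -4.85 ± 0.45 and -6.04 ± 0.70. PLEKHS1 and ZNF492 rose with dose in both, at 2.40 and 1.95 in persisters and 1.60 and 3.15 in adapted cells, and their interactions were not called (0.80 ± 0.73 and -1.20 ± 0.72). T10 and T320 were sorted and had adapted over time, so adaptation and sort cannot be told apart in this comparison.

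**Figure D5:**
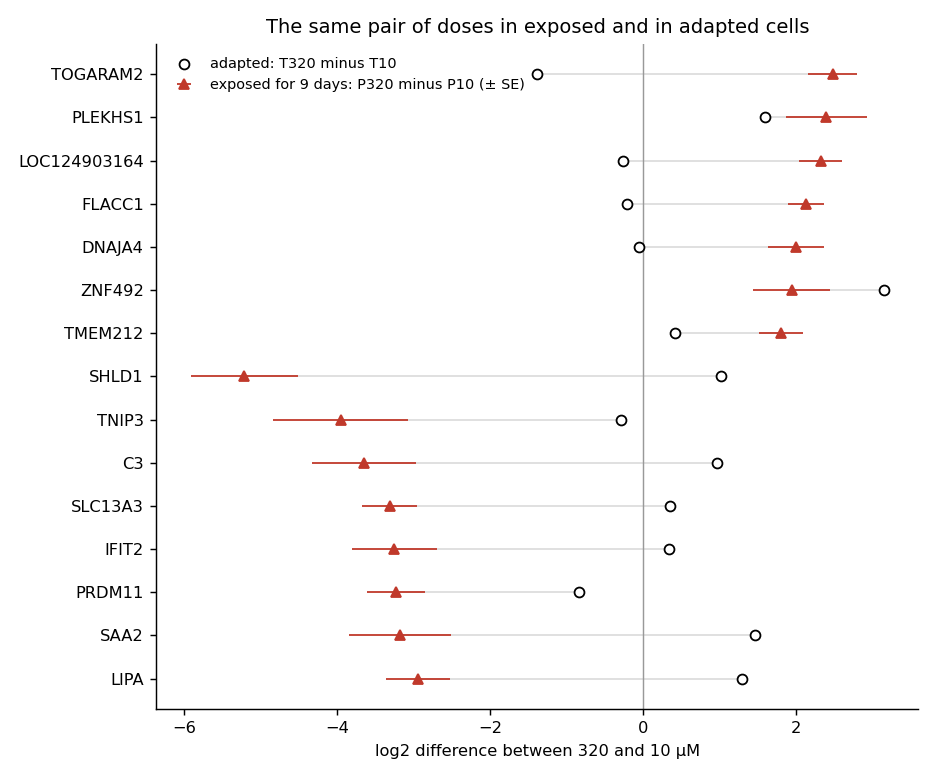
Log2 difference between 320 and 10 uM at 15 of the 16 gene-start peaks with the largest differences, in persisters (triangles, P320 minus P10, bars ± SE) and in adapted cells (circles, T320 minus T10, drawn without error). Peaks were chosen by the difference in persisters, so the gap between the symbols follows in part from the choice. TOGARAM2 lies at 2.48 and -1.38 and SHLD1 at -5.21 and 1.03, while PLEKHS1, ZNF492 and TMEM212 lie above 0 in both. Of these, the adapted difference was called at TOGARAM2, PLEKHS1 and ZNF492, and not at SHLD1 or TMEM212 (edgeR, adjusted p = 0.211 and 0.357).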

How the data were processed

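The authors deposited whole-number read counts per consensus peak, 1 column per library, and 4 of the 20 columns were compared here. The submitters' processing notes name the build GRCh38/hg38, Bowtie2, MACS2, Trim Galore, HOMER, SAMtools, DESeq2, deepTools and Picard, without giving roles or order. Whether peak starts count from 0 is not stated, so positions are given as in the table. Counts of all 10 groups were fitted together with edgeR 4.0.16 (TMM scaling, quasi-likelihood test, 1 mean per group), and P320 was contrasted with P10. The filter on low counts removed 0 peaks. P-values were adjusted by Benjamini-Hochberg over all 105048 peaks, and CPM are counts scaled to library size with TMM factors. Each SE is the size of the log2 difference divided by the square root of the F statistic of its test. The test was checked on simulated counts. Depth was 9627970 to 29699950 counts per library, and each group has 2 libraries.

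Peaks were placed by RefSeq's gene table for GRCh38.p14. A peak was put at a gene start within 1 kb of it. For 4214 of 20056 protein-coding genes the tables used give no strand, and both ends were then taken as starts. A distal peak has no gene end or start within 1 kb. The members and the gene lists were chosen with earlier results of these data known. Named were the 8 largest rises and 8 largest falls at gene starts (called, no overlap between the groups, at least 2 CPM in the higher group), the 4 distal peaks of smallest p in each direction, at most 2 called members per list, by adjusted p, the 5 genes with the most gained and the 5 with the most lost peaks, the 3 highest and 3 lowest windows of 5 Mb, and a set of single genes (CD24, CD44, BRCA2, PARP1, ABCB1, SLFN11, CDKN1A, CDKN2A, WT1, PAX8, MECOM). Other members and single peaks near list genes were named after their values were seen. Alternatives covered scaling, filter, fold minimum, tool (DESeq2 1.42.0), start distance, window medians, the replicate block and leaving out each library. A fit of the compared groups alone was another. A few genes that these rules name or count are not reported here by name.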

Additional observations from a re-analysis of the deposited data

Results flagged for a closer look

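The difference between 320 and 10 uM was itself different in persisters and in adapted cells at many sites, by the interaction term of the edgeR fit (adjusted over all peaks). It was higher in persisters at 10500 peaks and lower at 14264. Except for CDKN2A, the peaks named below were picked by their difference between P320 and P10, which is part of the interaction. That choice favours large interactions. Among the named rises the interaction was 3.87 at TOGARAM2, 2.58 at LOC124903164, 2.33 at FLACC1, 2.05 at DNAJA4, 1.39 at TMEM212 and 1.01 at IFI27, on the log2 scale. Among the named falls it was -6.24 at SHLD1, -3.66 at TNIP3, -4.61 at C3, -3.67 at SLC13A3, -3.59 at IFIT2, -2.39 at PRDM11, -4.64 at SAA2 and -4.24 at LIPA.

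At list genes the interaction was -2.87 at IL1B, -1.57 at CXCL8, -1.74 at CYP3A5 and -2.72 at OAS2, and at markers of other cell types -2.40 at ITGB2, -1.94 at CSF1R and -2.80 at FAP. CDKN2A, an inhibitor of cyclin-dependent kinases, had 5.51, with 0.36 between the persister groups and -5.15 between the adapted groups, so this value comes from the adapted side. At the distal peaks it was 3.53 at the chromosome 1 peak without a near gene, 3.46 near IVNS1ABP, 1.34 at the chromosome 8 peak, 1.59 in DENND2B, -3.09 near LOC124901803, -1.34 near ETV4, -4.37 near MAP7 and -2.85 near TNIP1. Adapted cells were sorted and no sort is named for persisters, so sort and adaptation cannot be told apart.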

How the results depend on the processing

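With any 1 library left out, the lone library being assumed to vary like the other groups, 1787 to 2191 peaks were gained and 3938 to 5848 lost, with 1548 to 1928 and 3431 to 5116 among distal and 40 to 78 and 131 to 184 among gene-start peaks. Of the calls 38.3% to 51.0% were kept, and in these fits and in all other settings run 0 calls turned direction. Scaled on gene-start peaks, 1840 peaks were gained, 1672 of them distal and 33 at gene starts, 0 list members were gained and 15 lost, and the interaction was higher at 4767 peaks. Without a fold minimum 8280 peaks were gained (6071 distal, 1549 at gene starts), 454 were lost at gene starts, and 54 list members were gained and 18 lost. Total-count scaling left 61 gained gene-start peaks. Fitted without the other groups, P10 and P320 gave 5104 peaks gained and 14302 lost, beside 4303 and 10168 in the main fit. A distance of 2 kb gave 142 gained and 452 lost, and starts of known strand alone, added after the data were seen, 179 lost. With the peak nearest to the start 2 list members were gained, as when 1 library was left out (1 to 2), and with all peaks within 50 kb, also added, 76 peaks of list genes were gained and 328 lost. Without T10 replicate 2 the interaction was higher at 6631 peaks (6631 to 10689 over the libraries left out). The sign of uncalled differences turned at MECOM (-0.0218 scaled on gene starts, -0.0484 with window medians removed, -0.0491 with the block too), WT1 (0.103 and 0.103 in the latter pair, -0.0531 to 0.0132 with 1 library left out) and ABCB1 (-0.1957 to 0.0677 with 1 library left out). The causes were not tested.

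Deviations of same-numbered P10 and P320 libraries correlated at -0.000317, and over all pairs of groups at -0.0955 to 0.587 (median 0.284). No label says that a number marks a shared batch, so the numbers were not taken to pair the libraries. With a replicate block 5522 peaks were gained and 12454 lost, and with window medians removed as well 5073 and 12600, with 2 list members gained. With the block the interaction was higher at 13147 and lower at 17537 peaks, beside 10500 and 14264 without it.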
